A study of Mus musculus with 10 samples.

Results

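The 10 genes Fos, Jun, Junb, Egr1, Ier2, Atf3, Nr4a1, Dusp1, Hspa1a and Hspa1b were examined in RNA-Seq data of brown adipose tissue (BAT). They were taken by gene symbol as immediate-early and heat shock genes, without use of their values, from 24454 genes with deposited counts. All 10 were among the 13568 genes that passed the filter on low counts. RNA was taken from whole BAT of male C57BL/6N mice at 2 months of age with free access to food, with 5 libraries per genotype. The titles of all 10 samples call them basal, and the methods state no cold exposure or treatment for these libraries. Stat5Adipoq mice carry floxed Stat5 alleles that Adipoq-Cre, which is active in adipocytes, deletes, so that all other cells of the tissue keep Stat5. The control mice are called wild type in the labels and are described in the methods as littermates with floxed Stat5 and no Cre. Depth was 8.49 to 19.5 M counts on genes in control and 9.40 to 15.7 M in Stat5Adipoq libraries. Stat5a fell by 2.62 and Stat5b by 1.94 on the log2 scale in Stat5Adipoq BAT (adjusted p = 2.0e-07 and 3.9e-09 by edgeR's quasi-likelihood test), with no overlap between genotypes. All 11 brown adipocyte markers examined were detected, with a summed level of 18635 to 29799 in control and 20479 to 26031 in Stat5Adipoq libraries as CPM, which are counts scaled to a common library size.

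Immediate-early genes are transcribed without prior protein synthesis when growth factors, calcium, cAMP or stress activate factors already present in the cell, and their mRNAs are short-lived. Growth factor signalling through serum response factor drives Fos and Egr1, JNK signalling acts on Jun and Atf3, and cAMP acts through CREB on Fos, Dusp1 and the Nr4a genes, which β-adrenergic stimulation is known to induce in brown adipocytes. Heat shock factor HSF1 drives the HSP70 genes Hspa1a and Hspa1b when unfolded proteins accumulate. In bulk tissue, fewer cells of a type and less RNA per cell cannot be told apart, and a change in any cell of the depot enters these values.

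Stretches in front of an annotated start of 6 of the genes are shown for their matches to a cAMP or heat shock motif. They were read from the RefSeq promoter windows for GRCm38.p6, which cover 250 bases before to 50 bases after an annotated start. Windows were matched for 8 of the 10 genes, without Egr1 and Ier2. Each is printed 5′ to 3′ on the strand of the gene and ends at the base before the start of its window. For Nr4a1 this start lies inside the gene span of 101253902 to 101274795, so the stretch is not in front of the whole gene. For the other genes shown it is the start of the gene span. In the first 3, capitals mark TGACG, the core of the cAMP response element, or its reverse complement, and in Dusp1 also the full palindrome TGACGTCA, which contains it. In the last 3, capitals mark GAANNTTC, the inverted repeat of the heat shock element. Other motifs are not marked, and a match does not place a gene, such as Jun, in a programme.
Fos, chr12:85473740-85473889, plus strand: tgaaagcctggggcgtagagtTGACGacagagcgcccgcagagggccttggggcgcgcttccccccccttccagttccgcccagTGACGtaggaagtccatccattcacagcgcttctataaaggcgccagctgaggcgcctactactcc
Dusp1, chr17:26508473-26508672, minus strand: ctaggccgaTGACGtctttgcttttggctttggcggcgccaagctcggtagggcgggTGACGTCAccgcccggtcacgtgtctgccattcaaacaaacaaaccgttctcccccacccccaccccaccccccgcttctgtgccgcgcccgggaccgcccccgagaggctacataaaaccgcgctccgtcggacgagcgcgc
Nr4a1, chr15:101266596-101266845, plus strand: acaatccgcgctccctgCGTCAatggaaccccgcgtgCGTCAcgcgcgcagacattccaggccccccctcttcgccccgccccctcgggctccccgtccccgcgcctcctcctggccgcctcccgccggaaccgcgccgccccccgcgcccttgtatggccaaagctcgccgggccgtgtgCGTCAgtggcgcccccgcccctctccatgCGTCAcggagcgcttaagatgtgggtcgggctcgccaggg
Jun, chr4:95052223-95052372, minus strand: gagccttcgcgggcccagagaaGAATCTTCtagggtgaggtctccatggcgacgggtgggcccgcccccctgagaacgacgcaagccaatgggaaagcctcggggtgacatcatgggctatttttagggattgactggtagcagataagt
Hspa1a, chr17:34972157-34972306, minus strand: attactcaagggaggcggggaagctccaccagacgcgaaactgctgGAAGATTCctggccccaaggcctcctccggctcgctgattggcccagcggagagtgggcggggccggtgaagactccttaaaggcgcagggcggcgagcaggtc
Hspa1b, chr17:34959239-34959388, minus strand: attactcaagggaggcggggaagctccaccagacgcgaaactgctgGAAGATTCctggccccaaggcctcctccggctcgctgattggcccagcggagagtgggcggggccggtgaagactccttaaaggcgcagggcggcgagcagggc

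On either strand, TGACG occurred in 5 of the 8 windows (Fos, Junb, Atf3, Nr4a1 and Dusp1), and in 20.8% of all 32851 windows of the same length. The palindrome TGACGTCA occurred only in that of Dusp1, against 1.79% of all windows. GAANNTTC was found in 3 of 8 (Jun, Hspa1a and Hspa1b), against 7.86% of all windows. The AP-1 motif TGANTCA, the STAT motif TTCNNNGAA and the CArG box bound by serum response factor were in none of the 8, against 7.81%, 8.3% and 1.63% of all windows. The letters TATAAA of the TATA motif were in those of Fos and Junb, against 13.6%. In Fos they lay at -33 to -28 from the start, whereas in Junb they began at the start and ran into the transcript. The windows of Hspa1a and Hspa1b differed at 4 of 300 bases, 1 of them within the stretch printed. These matches are a description of letters in short windows and not of factor binding. Sites farther than 250 bases upstream were not read, and Egr1 had no window. The absence of a CArG box here therefore does not show that these genes lack one.

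No difference between genotypes was detected for any of the 10 genes. With p-values of edgeR's quasi-likelihood test adjusted by the Benjamini-Hochberg method, 0 of 10 were called, against 2.71% of all tested genes (1.4% higher and 1.31% lower in Stat5Adipoq BAT), and DESeq2 and limma-voom also called 0. At an unadjusted p below 0.05 there were 0 of 10, against 15.2% of all tested genes. The libraries of the genotypes overlapped for all 10, whereas they did not overlap for 4.39% of all tested genes. The values below are CPM after TMM scaling, given for replicates 1 to 5 of each genotype, with mean ± SD.

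**Figure D1:**
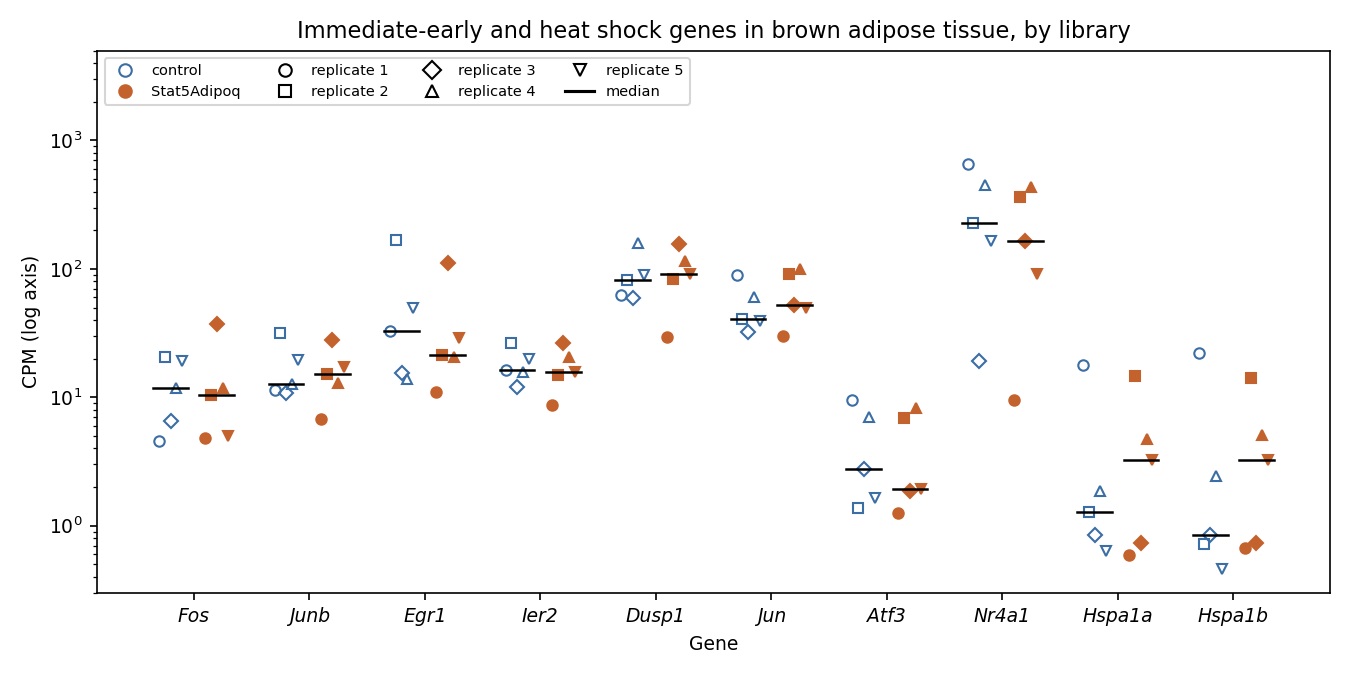
CPM of the 10 genes on a log axis, with 1 symbol per library (open blue, control; filled orange, Stat5Adipoq; shape, replicate number) and a bar at the median of 5 libraries. The genotypes overlapped for every gene, and Stat5Adipoq replicate 1 was the lowest library of its genotype in all 10.

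The AP-1 genes encode basic leucine zipper proteins that bind DNA as dimers. Fos (chromosome 12, 85473890 to 85477274), whose product pairs with a JUN protein, measured 4.60, 20.6, 6.49, 11.8 and 19.3 CPM in control and 4.86, 10.5, 36.9, 11.9 and 4.95 CPM in Stat5Adipoq libraries. The highest value was in Stat5Adipoq replicate 3, and the lowest libraries of both genotypes lay side by side. The means were 12.5 ± 7.26 and 13.8 ± 13.3 CPM (SD, n = 5), which is 0.12 as log2 fold change (SE 0.56, 95% limits -1.09 to 1.33, adjusted p = 0.96, edgeR). Without Stat5Adipoq replicate 3 it was -0.66.

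Jun (chromosome 4, 95049036 to 95052222), the partner of FOS and ATF proteins, measured 88.9, 40.5, 32.0, 60.0 and 39.4 CPM in control and 30.2, 91.7, 52.7, 99.0 and 49.4 CPM in Stat5Adipoq BAT. One control and 2 Stat5Adipoq libraries stood above the rest. Its log2 fold change of 0.30 (SE 0.33, limits -0.42 to 1.03, adjusted p = 0.74, edgeR) was within the spread between mice. Junb (chromosome 8, 84976909 to 84978748), a JUN family member with weaker activating function, measured 11.5, 31.7, 10.8, 12.6 and 19.6 CPM in control and 6.79, 15.1, 28.0, 12.9 and 17.1 CPM in Stat5Adipoq libraries. Here control replicate 2 and Stat5Adipoq replicate 3 were high, which were not the libraries with high Jun. The log2 fold change of Junb was -0.11 (SE 0.36, limits -0.90 to 0.67). Atf3 (chromosome 1, 191170296 to 191183333), a stress-induced member of the ATF family, measured 9.57, 1.36, 2.77, 7.03 and 1.64 CPM in control and 1.26, 6.92, 1.85, 8.26 and 1.92 CPM in Stat5Adipoq BAT. Control replicates 1 and 4 and Stat5Adipoq replicates 2 and 4 were high and the other libraries low, so that each genotype held both levels. The log2 fold change of Atf3 was -0.18 (SE 0.61, limits -1.52 to 1.16).

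Egr1 and Nr4a1 encode DNA-binding factors of other classes. Egr1 (chromosome 18, 34861207 to 34864956), a zinc finger factor, measured 32.6, 167, 15.4, 14.0 and 49.2 CPM in control and 11.1, 21.2, 110, 20.7 and 29.2 CPM in Stat5Adipoq libraries. One library of each genotype, control replicate 2 and Stat5Adipoq replicate 3, exceeded all others. Its log2 fold change of -0.54 (SE 0.73, limits -2.12 to 1.05, adjusted p = 0.80, edgeR) turned to 0.47 without control replicate 2. Nr4a1 (chromosome 15, 101253902 to 101274795), an orphan nuclear receptor, measured 658, 229, 19.1, 452 and 166 CPM in control and 9.47, 364, 165, 436 and 91.5 CPM in Stat5Adipoq BAT. Control replicate 3 and Stat5Adipoq replicate 1 were far below the other 8 libraries. The log2 fold change of Nr4a1 was -0.52 (SE 0.84, limits -2.35 to 1.32, adjusted p = 0.84, edgeR) and -0.03 without control replicate 1. Ier2 (chromosome 8, 84661331 to 84662852), which encodes a small nuclear protein induced by growth factors, measured 16.4, 26.6, 12.0, 15.8 and 20.0 CPM in control and 8.64, 14.9, 26.4, 20.6 and 15.8 CPM in Stat5Adipoq libraries. It was the least variable of the 10 genes, and its log2 fold change of -0.08 (SE 0.27) had the narrowest limits, -0.66 to 0.50.

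Dusp1 (chromosome 17, 26505591 to 26508472) encodes a phosphatase that inactivates MAP kinases and so ends the signal that induced it. It measured 62.9, 81.4, 59.5, 158 and 89.1 CPM in control and 29.5, 82.7, 156, 115 and 91.3 CPM in Stat5Adipoq BAT. Control replicate 4 and Stat5Adipoq replicate 3 were the high libraries. Its log2 fold change was 0.06 (SE 0.37, limits -0.73 to 0.86, adjusted p = 0.97, edgeR).

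Hspa1a (chromosome 17, 34969359 to 34972156) and Hspa1b (34956429 to 34959238 on the same chromosome) encode the inducible cytosolic HSP70. Hspa1a measured 17.9, 1.27, 0.842, 1.87 and 0.640 CPM in control and 0.587, 14.7, 0.739, 4.74 and 3.28 CPM in Stat5Adipoq libraries. Hspa1b measured 22.0, 0.726, 0.842, 2.43 and 0.457 CPM in control and 0.671, 14.2, 0.739, 5.07 and 3.28 CPM in Stat5Adipoq libraries. For both genes, control replicate 1 and Stat5Adipoq replicate 2 stood far above the rest, and the lowest libraries of either genotype held fewer than 10 counts. The log2 fold changes were 0.15 (SE 0.96, limits -1.93 to 2.23) and -0.09 (SE 1.01, limits -2.28 to 2.10). Their size and sign depended on single libraries, as they were 2.00 and 1.99 without control replicate 1 and -0.96 and -1.13 without Stat5Adipoq replicate 2. The genes are near-identical, and 58.8% and 62.3% of the 50-base words in their longest transcripts also occur in the other gene, so counts of either are uncertain. Their summed counts were 417, 22, 14, 85 and 12 in control and 15, 450, 16, 89 and 82 in Stat5Adipoq libraries, of which Hspa1a took 43.5% to 63.6%. Exons of Gm20481 on the opposite strand cover 19.0% of those of Hspa1a, and whether counting used the strand is not given in the sources used here. Opposite-strand genes also cover 7.28% of Jun (Junos), 7.52% of Junb (Prdx2) and 0.332% of Dusp1 exons.

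When every way of assigning the libraries to genotypes was enumerated, the exact permutation test of log2 CPM (2-sided) gave p-values of 0.50 (Jun) to 0.98 (Dusp1) for the 10 genes, where the smallest p that 5 against 5 libraries allow is 0.0079. The widest 95% limits, those of Hspa1b, allow a ratio of Stat5Adipoq to control from 0.206 to 4.27, and the narrowest, those of Ier2, a ratio from 0.633 to 1.41. These limits are wide, so the data do not show that the genotypes had like levels.

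**Figure D2:**
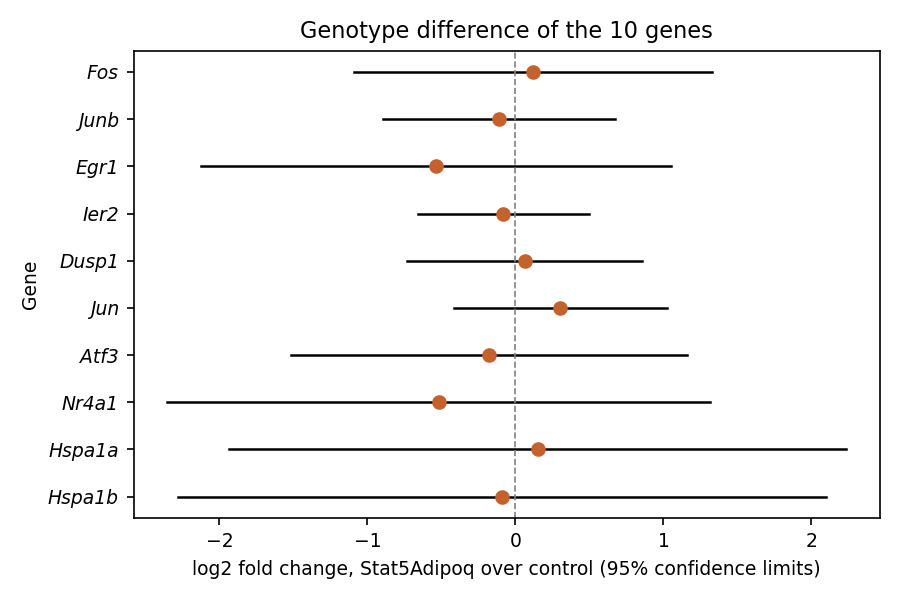
log2 fold change of Stat5Adipoq over control for the 10 genes, with 95% confidence limits from edgeR (n = 5 per genotype). All limits include 0, and they range from -0.66 to 0.50 for Ier2 to -2.28 to 2.10 for Hspa1b.

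Levels were compared between genes as CPM per kilobase of exon. Nr4a1 was highest in control BAT with 86.8 ± 71.6 CPM per kilobase (SD, n = 5), followed by Dusp1 at 27.2 ± 12.0, Jun at 16.4 ± 7.22, Egr1 at 12.4 ± 14.3, Ier2 at 11.9 ± 3.61, Junb at 7.49 ± 3.82, Fos at 5.34 ± 3.09, Atf3 at 2.08 ± 1.69, Hspa1b at 1.89 ± 3.35 and Hspa1a at 1.52 ± 2.53. Only the steps from Ier2 to Junb and from Fos to Atf3 were larger than the SDs of both neighbours. The order in Stat5Adipoq BAT was the same except that Ier2 stood above Egr1, and there no step exceeded both SDs.

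For each of the 10 genes the spread between mice of one genotype was larger than the difference between genotypes. The SD of log2 CPM within genotype, pooled over both, was 2.10 for Nr4a1, 1.92 for Hspa1b, 1.79 for Hspa1a, 1.34 for Egr1, 1.18 for Atf3 and 1.06 for Fos. It was 0.75 for Dusp1, 0.69 for Junb, 0.65 for Jun and 0.52 for Ier2. The median over all tested genes was 0.18, so all 10 lay well above it. Of the 10, 9 were in the most variable 10% of tested genes, and the remaining gene, Ier2, was exceeded by 10.1% of them. Nr4a1 was exceeded by 0.258% of tested genes, although it averaged more counts than any other of the 10. The highest library exceeded the lowest 34.4-fold in control and 46.0-fold in Stat5Adipoq BAT for Nr4a1, 12.0-fold and 9.96-fold for Egr1, and 2.21-fold and 3.06-fold for Ier2. Low genes vary more by counting alone, and Hspa1a and Hspa1b held fewer than 10 counts in some libraries, but the dispersion edgeR estimated was above the trend at the same abundance for all 10 genes.

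**Figure D3:**
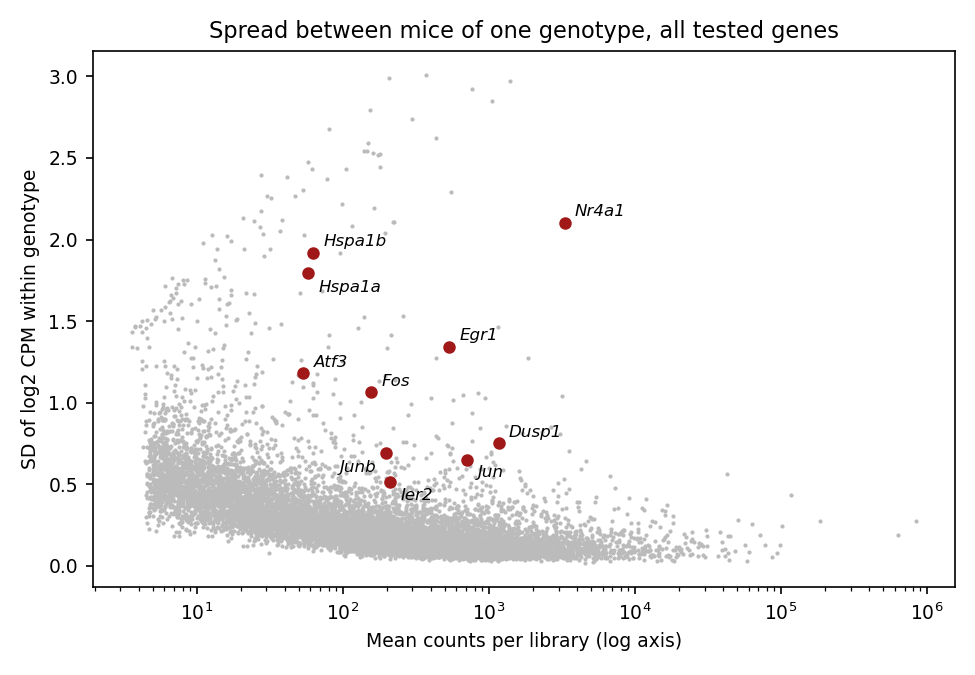
SD of log2 CPM within genotype against mean counts per library (log axis) for all 13568 tested genes (grey), with the 10 genes in red. Nr4a1, Hspa1b and Hspa1a have SDs of 1.79 to 2.10, against a median of 0.18 over all genes.

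A pair of libraries held low values throughout. Stat5Adipoq replicate 1 was the lowest of its genotype for all 10 genes, and control replicate 3 was below the control mean for all 10 and lowest for 5. Summed skeletal muscle markers (14 of 14 detected) were 5202 CPM in control replicate 3. They were 422 CPM in control replicate 5 and 6.82 to 79.2 CPM in the other control libraries. In Stat5Adipoq replicate 1 they were 59.2 CPM, against 3.40 to 25.3 CPM in the other Stat5Adipoq libraries. Liver markers (10 of 11 passed the filter) summed to 283 CPM in control replicate 3 and 60.6 to 190 CPM in the other control libraries. Their sum was 84.9 CPM in Stat5Adipoq replicate 1 and 30.5 to 33.8 CPM in the other Stat5Adipoq libraries. Without control replicate 3, all 10 genes were in the most variable 10%, a rank among genes whose spread also changed, and the SD of Nr4a1 was 1.78. Without Stat5Adipoq replicate 1 it was 8 of 10, with Dusp1 and Ier2 outside, and Nr4a1, at an SD of 1.65, was exceeded by 0.641% of genes. Without both libraries 9 of 10 remained in that class, and the SD of Nr4a1 was 0.98.

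Of 36 relations between marker sums or the library total and Fos, Nr4a1 or the mean of the 10 genes, none passed adjustment (lowest adjusted p = 0.41, exact permutation within genotype). Muscle markers had r = -0.72 (unadjusted p = 0.014) and rho = -0.53 (p = 0.12) with Nr4a1, and r = -0.55 without the 2 libraries farthest in muscle markers. Fibroblast markers had r = -0.70 (p = 0.042) and rho = -0.73 (p = 0.030) with the mean of the 10 genes, and r = 0.12 without the 2 farthest libraries, so that this relation rests on those libraries. The part of other cell types in the spread was not tested further.

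Within genotype, the genes rose and fell together in part. Each gene's log2 CPM was centred on its genotype mean, and the 45 pairs were correlated over the 10 libraries, with p from all rearrangements within genotypes and adjusted over the 45 pairs. Pearson's r was above 0 in 33 pairs and below 0 in 12, with a median of 0.41. There were 10 pairs past the threshold, all with positive r (0.81 to 0.99) and with the same sign in both genotypes, and Spearman's rho called 9 pairs, all among these 10.

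The called pairs joined different sets of genes. Jun correlated with Nr4a1 (r = 0.90, adjusted p = 0.0031, rho = 0.95, adjusted p = 0.0031, exact permutation) and with Atf3 (r = 0.90, adjusted p = 0.017, rho = 0.82, adjusted p = 0.043, exact permutation). It also correlated with Hspa1a and Hspa1b (r = 0.86 for both, adjusted p = 0.019 for both, rho = 0.83 and 0.87, adjusted p = 0.034 for both, exact permutation). Control replicate 1 was the highest control library for each of these 5 genes, and Stat5Adipoq replicates 2 and 4 were the highest of theirs. Atf3 correlated with Hspa1b (r = 0.86, adjusted p = 0.017, rho = 0.90, adjusted p = 0.031, exact permutation) and with Hspa1a (r = 0.81, adjusted p = 0.023), where rho was 0.81 and missed the threshold (adjusted p = 0.052, exact permutation). Hspa1a and Hspa1b had r = 0.99 and rho = 0.96 (adjusted p = 0.0047 for both, exact permutation), but they share sequence and possibly reads.

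The other called pairs were among Junb, Egr1 and Ier2. Junb correlated with Egr1 (r = 0.92, adjusted p = 0.011, rho = 0.87, adjusted p = 0.034, exact permutation) and with Ier2 (r = 0.90, adjusted p = 0.017, rho = 0.87, adjusted p = 0.034, exact permutation), and Egr1 with Ier2 (r = 0.85, adjusted p = 0.019, rho = 0.83, adjusted p = 0.034, exact permutation). Control replicate 2 and Stat5Adipoq replicate 3 were the highest libraries for each of these genes. Fos, whose product is the classical partner of JUN, was highest in the same libraries, and its r was 0.80 with Ier2 and 0.79 with Junb (adjusted p = 0.058 and 0.067, exact permutation). Between Fos and Jun r was 0.01 (rho -0.03, adjusted p = 0.97 for both, exact permutation), and between Fos and Hspa1b it was -0.43, the lowest of all pairs (adjusted p = 0.48). Without the 2 libraries farthest on Fos, r was 0.65 with Jun and 0.33 with Hspa1b, so that these low values rest on those libraries.

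With the genes split, after these values were seen, into Fos, Junb, Egr1, Ier2 and Dusp1 on one side and Jun, Atf3, Nr4a1, Hspa1a and Hspa1b on the other, the 10 pairs in the first set had r of 0.36 to 0.92 and a median of 0.76. The 10 pairs in the second had 0.65 to 0.99 and a median of 0.86. The 25 pairs between the sets ran from -0.43 to 0.68 with a median of 0.01, and 0 of them were called (0 at an unadjusted p below 0.05). The sets were chosen on these values, so the contrast is a description. Without the 2 libraries farthest on the first gene, r between the sets moved in both directions. It went from 0.33 to 0.78 for Fos and Nr4a1, and from 0.68 to -0.05 for Nr4a1 and Dusp1. Over all libraries, r of Dusp1 with the genes of its own set was 0.36 to 0.73. Averaged over the genes of the second set, control replicate 1 was 2.14 above its genotype mean on the log2 scale and 0.46 below it over the first set (-0.46). Control replicate 2 was reversed, at -0.58 and 0.94, and so was Stat5Adipoq replicate 3, at -0.73 and 1.27 (second set first). Stat5Adipoq replicate 1 was low in both, at -1.89 and -1.16.

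**Figure D4:**
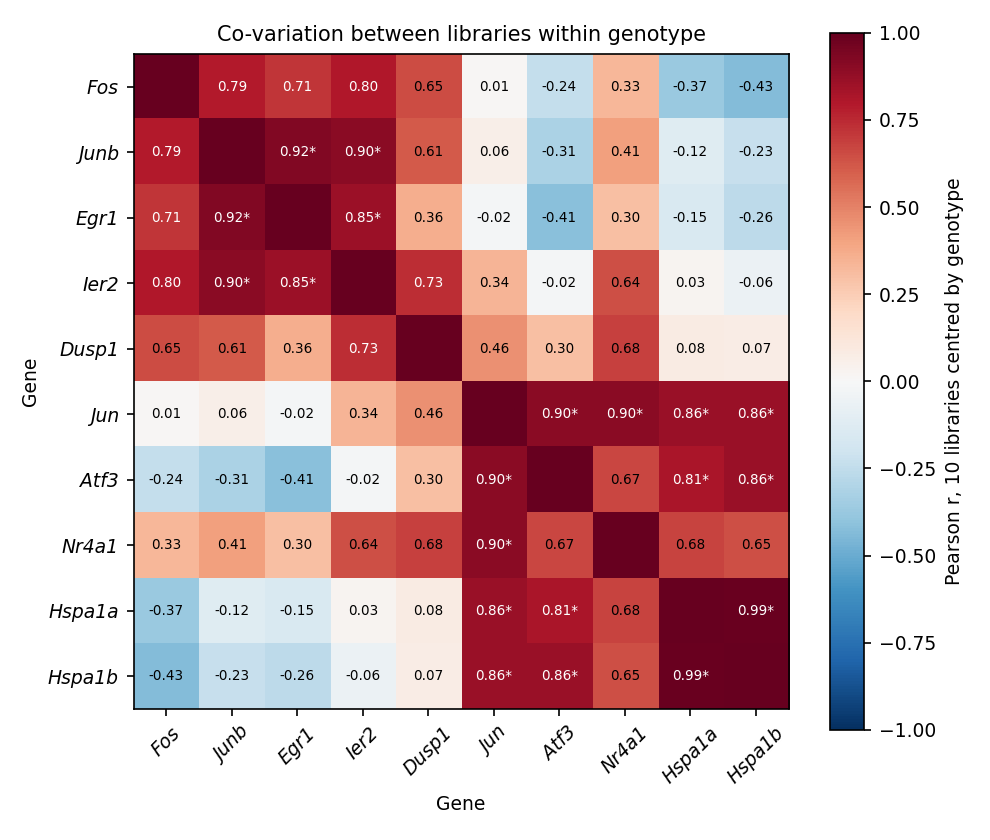
Pearson r of genotype-centred log2 CPM over 10 libraries for the 45 pairs of the 10 genes, from red (positive) to blue (negative), with asterisks on the 10 pairs past an adjusted p of 0.05. The genes are ordered by the sets described in the text. All asterisks fall within a set, which is no separate result because the sets were chosen on these values.

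**Figure D5:**
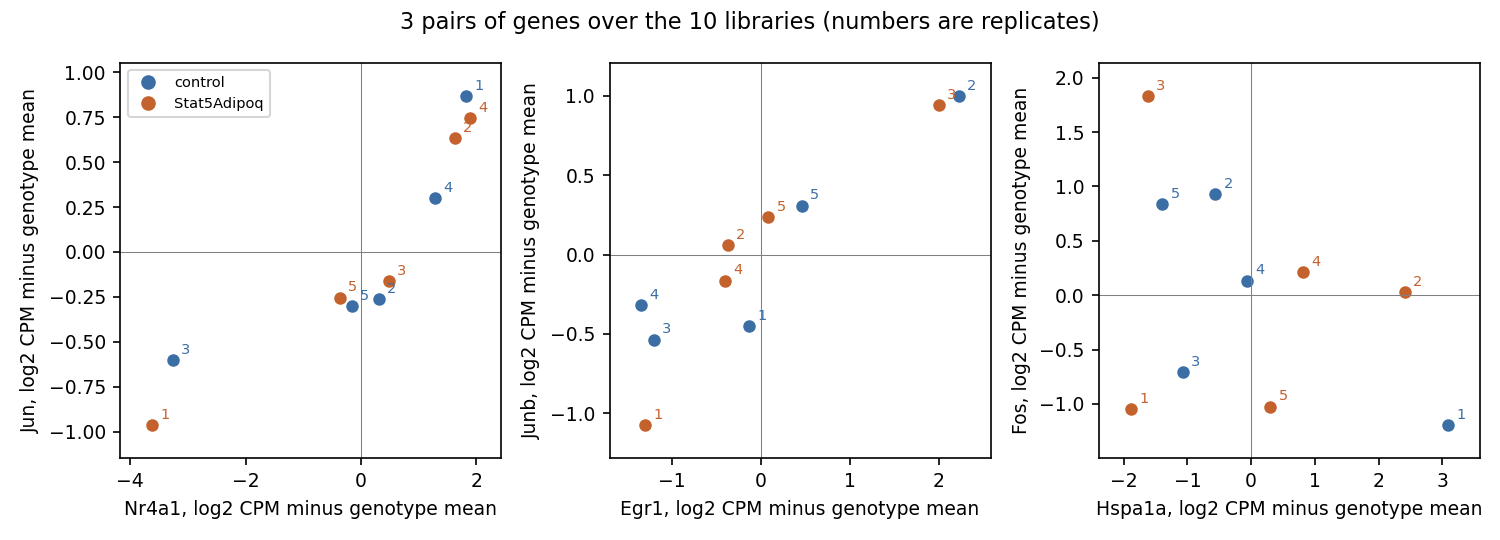
Genotype-centred log2 CPM of 3 pairs, with 1 point per library (blue, control; orange, Stat5Adipoq; number, replicate). Jun followed Nr4a1 (r = 0.90) and Junb followed Egr1 (r = 0.92), while Fos and Hspa1a had r = -0.37 (adjusted p = 0.54, exact permutation). Without the 2 libraries farthest on Fos, r of Fos and Hspa1a was 0.46.

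In the 10 called pairs, the sizes of r changed less than the calls when libraries were left out. Leaving out the 2 libraries farthest on the first gene left r at 0.71 to 0.96, and leaving out any single library left r at 0.755 or above in all 10 pairs. Over all 45 pairs r was less stable. Without Stat5Adipoq replicate 1 its median fell from 0.41 to 0.10, and 36 of the 45 pairs kept their sign. The number past the threshold was 3 without control replicate 1, 3 without control replicate 2 and 1 without Stat5Adipoq replicate 1, and 8 to 12 without any other single library. Leaving out any single library leaves the same number of rearrangements, fewer than with all 10, so these counts depended on which library was left out. With log2 library size regressed out, 12 pairs were called, which included the 10.

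Other genes of the same programmes were examined in 7 lists of 147 genes, of which 137 were tested. None was higher and 1 was lower in Stat5Adipoq BAT by edgeR, which is 0.730% of those tested against 2.71% of all genes. The AP-1 and EGR family (10 tested, median log2 fold change 0.13), other immediate-early transcription factors (16 tested, median -0.08), effectors (29 tested, median -0.05), MAP kinase phosphatases and sprouty genes (14 tested, median 0.00) and the inducing kinases, transcription factors and coactivators (24 tested, median -0.04) held no called gene. Neither did HSF1 chaperones (25 tested, median 0.17), of which 21 had a log2 fold change above 0 (20 with library size as the only scaling), beside 6679 of all 13568 tested genes, whose median was -0.00. Of the 137 genes, 13 had an unadjusted p below 0.05 by edgeR, against 15.2% of all tested genes. The list of ER stress and the integrated stress response (19 tested, median -0.09) held the single called gene, Dnajb9.

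Dnajb9 encodes an ER co-chaperone that acts with BiP and is a target of the IRE1 and XBP1 arm of the unfolded protein response. It measured 46.4, 40.9, 55.7, 48.3 and 34.4 CPM in control and 29.3, 37.1, 26.8, 28.5 and 34.7 CPM in Stat5Adipoq libraries. The genotypes overlapped through control replicate 5. The means were 45.2 ± 7.98 and 31.3 ± 4.40 CPM (SD, n = 5), and the log2 fold change was -0.52 (SE 0.13, adjusted p = 0.048 by edgeR). The call was near the threshold and held in 9 of 20 alternatives, with adjusted p from 0.0041 to 0.146, and it was lost, for example, without control replicate 3 (log2 fold change -0.44). The most abundant ER chaperones in the same list were not called, with log2 fold changes of -0.09 for Hspa5 (BiP), -0.09 for Calr and 0.01 for Hsp90b1.

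The most abundant genes of the other lists were also not called. Nab1, a corepressor of EGR factors, had a log2 fold change of -0.13, and the AP-1 genes Fosl2 and Jund 0.20 and 0.19. Bhlhe40, Klf9 and Cebpb had 0.16, -0.05 and -0.19. Among effectors, the kinase gene Sik1, a CREB target, had -0.67 with 180 ± 101 CPM in control and 114 ± 86.0 CPM in Stat5Adipoq BAT (SD, n = 5, adjusted p = 0.66, edgeR), and Rhob and Zfp36l2 had 0.00 and 0.16. The phosphatase genes Dusp3, Dusp4 and Dusp6 had -0.10, 0.21 and -0.27, and the kinase genes Mapk14 and Map2k2 0.17 and -0.04. The chaperone genes Hspa9, Hsp90ab1 and Serpinh1 had 0.01, 0.28 and 0.10. Among 10 glucocorticoid-response genes, 0 were called by edgeR, against 2.71% of all tested genes. At an unadjusted p below 0.05 by edgeR there were 3 of 10, against 15.2%. Their median log2 fold change was -0.31, against -0.0028 over all tested genes.

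Large spread was also common in the other immediate-early lists. In the most variable 10% of tested genes were 6 of 10 AP-1 and EGR genes, 10 of 16 other transcription factors, 14 of 29 effectors and 5 of 14 phosphatases and sprouty genes. Only 4 of 25 HSF1 chaperones and 3 of 19 ER stress genes were there, and 0 of 24 kinases, transcription factors and coactivators of the inducing pathway, whose median SD of log2 CPM was 0.12. Of the glucocorticoid-response genes, 5 of 10 were there. Marker lists of other cell types differed. In that class were 14 of 14 skeletal muscle, 10 of 10 liver, 4 of 8 Schwann cell and 2 of 3 neutrophil markers, against 2 of 11 brown adipocyte markers. The remaining lists had 2 of 8 B and T cell, 1 of 10 endothelial, 1 of 8 fibroblast, 1 of 7 mural cell and 0 of 11 macrophage markers there. All 14 muscle markers had a larger SD than each of the 10 immediate-early and heat shock genes over all libraries. Without control replicate 3, those with a larger SD were 5 for Hspa1b, 6 for Nr4a1, 6 for Hspa1a, 10 for Egr1 and 12 to 14 for the other genes.

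Genes of these lists that followed Jun, Nr4a1, Hspa1a, Egr1 or Fos over the libraries were counted. With r of at least 0.8, a limit chosen after the data were seen, there were 18 of 137 list genes for Jun (13.1%, against 0.914% of all tested genes), 10 for Nr4a1 (7.30%, against 0.884%) and 7 for Hspa1a (5.11%, against 0.803%). There were 3 for Egr1 (2.19%, against 0.472%) and 0 for Fos (against 0.501%). Those of Jun included its highest, the nuclear receptor gene Nr4a2 (r = 0.95), Sik1 (0.93) and the HSP70 co-chaperone gene Dnajb1 (0.88). Those of Egr1 were Dusp14 (0.85), Cyr61 (0.83), which encodes a matricellular protein, and the antiproliferative gene Btg2 (0.81). These r values over 10 libraries share depth and scaling and are given as a description.

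Over all 10142 genes with at least 50 counts on average, the patterns most like that of Fos were those of Meis2 (r = 0.94), Zbtb1 (0.93), Exosc7 (0.92), Trim11 (0.91) and Me3 (0.91), over 10 libraries. Those most like Hspa1a were Serf2 (0.96), Dagla (0.95), Zyx (0.94), Hinfp (0.94) and Casz1 (0.92). For both Fos and Hspa1a, these are the highest of 10142 r values over 10 libraries. Whether they exceed what unrelated genes would give was not tested. None of these 10 genes was called between genotypes, and they moved over a much narrower range, as with Meis2 at 13.8 to 18.5 CPM while Fos ran from 4.60 to 36.9 CPM.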

How the data were processed

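BAT of 5 control and 5 Stat5Adipoq mice was sequenced in single reads of 50 bases from stranded libraries. The authors aligned the reads to GRCm38 with STAR 2.5.0b, counted them with featureCounts 1.5.0-p1 and deposited counts per gene, without normalization. Whether strand or multi-mapping reads were used in counting is not given in the sources used here. A second deposited table pairs gene identifiers with symbols, which were used, and holds fold changes and p-values of the authors' comparison from DESeq2, which were not.

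Samples were grouped by their labels. Genes were kept where the sum of size factor normalized counts was above 45. Genotypes were compared by edgeR 4.0.16 (quasi-likelihood F test, TMM, no covariate) with Benjamini-Hochberg adjustment over 13568 genes and a threshold of 0.05. CPM are TMM-scaled, and log2 CPM used a prior count of 2. Correlations were computed on log2 CPM minus the genotype mean, with exact two-sided p. Positions and promoter windows are from RefSeq (GRCm38.p6), and exons and 50-base words from GENCODE vM21. Besides the 10 genes, the text names every called gene and the 3 most abundant genes of each list, the 5 genes most like Fos and Hspa1a, and genes chosen after their values were seen where so stated or where a count is illustrated. The value of 1 gene named by this rule is not reported here. The genes and lists were chosen with earlier results of these data known.

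The procedure was tested on simulated counts whose spread followed the trend over all genes, which is below that of the 10 genes, so it does not bear on their power. No pair of libraries differed by sampling noise alone (chi-square per degree of freedom at least 4.99). Precision was limited by the spread between mice for all 10 genes, and for Hspa1a and Hspa1b also by few counts. Alternatives were DESeq2 1.42.0, limma-voom (limma 3.58.1), other scalings, filters and dispersions, a replicate block, 1 surrogate variable from sva 3.50.0 and leaving out each library.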

Additional observations from a re-analysis of the deposited data

Results flagged for a closer look

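Each group of 5 libraries was examined for a library far from the others (gap to the nearest over the whole range above 0.71) for the named genes and the library total. On the linear scale 9 of 90 groups were found and on the log2 scale 3, where chance would give about 4.5 if the groups were independent. They were not, as some genes were picked for likeness to Fos or Hspa1a, so these counts are a description. Of the 20 groups of the 10 immediate-early and heat shock genes, 5 were found on the linear scale and 0 on the log2 scale. Hspa1a was 17.9 CPM in control replicate 1 and 0.640 to 1.87 CPM in the other controls, and Hspa1b was 22.0 CPM in the same library and 0.457 to 2.43 CPM in the others. Egr1 was 167 CPM in control replicate 2 and 14.0 to 49.2 CPM in the other controls. In Stat5Adipoq replicate 3, Egr1 was 110 CPM and Fos 36.9 CPM, against 11.1 to 29.2 CPM and 4.86 to 11.9 CPM in the other Stat5Adipoq libraries. On both scales, Stat5a was apart at 20.7 CPM in Stat5Adipoq replicate 1, with 15.8 to 16.6 CPM in the other Stat5Adipoq libraries. Serf2 and Dagla, named for their likeness to Hspa1a, were apart on both scales in control replicate 1, at 33.2 CPM against 28.8 to 29.6 CPM and at 141 CPM against 99.5 to 107 CPM. The library total of control replicate 4 was 19.5 M counts, against 8.49 to 10.9 M counts in the other controls.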

How the results depend on the processing

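None of the 10 genes was called in any of 20 alternatives, and the lowest adjusted p was 0.30 (edgeR, without control replicate 1, where Hspa1a and Hspa1b passed an unadjusted p below 0.05). The sign of the log2 fold change was kept in all 20 for Jun and Nr4a1 and changed in 1 (Egr1) to 6 (Dusp1 and Hspa1b) for the other genes, always without being called. Leaving out single libraries gave -0.66 to 0.36 for Fos, -1.44 to 0.47 for Egr1, -0.96 to 2.00 for Hspa1a and -1.13 to 1.99 for Hspa1b. The number of co-varying pairs was 1 to 12 when single libraries were left out. Over all genes, 368 calls became 660 with DESeq2 (326 higher, 334 lower) and 185 to 442 without single libraries. In the wider lists, counted by settings added after the data were seen, the 1 call became 4 with DESeq2 (Dnajb9, Dusp14, Dusp5 and Hspb8), 0 with limma-voom, 0 with 1 surrogate variable, and 0 to 2 without single libraries. Same-numbered libraries had correlations of deviations over all tested genes from -0.23 to 0.09. These were not compared with differently numbered libraries, so whether replicate numbers pair the samples was not tested. With a replicate block 273 genes were called, 0 of the 10 genes, 2 genes of the wider lists (Hspb8 and Nfil3) and 11 pairs. At this depth, the lowest libraries of Hspa1a and Hspa1b held 5 to 8 counts, which limits both genes. The cause of these shifts was not tested.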
